A study of Mus musculus with 3 samples.

Results

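The transcripts described here encode the relay between G protein-coupled receptors and cyclic AMP: G protein alpha, beta and gamma subunits, regulators of G protein signalling (RGS proteins), receptor kinases, beta-arrestins, adenylyl cyclases, phosphodiesterases, protein kinase A, its anchoring proteins and the CREB family of transcription factors. The 113 genes were taken by symbol from a table of 16129 listed genes. The rule for symbols uses no levels, but it was set with earlier results of these data known. The cells were type 2 innate lymphoid cells (ILC2s), lymphocytes of barrier tissues that make type 2 cytokines, isolated by flow cytometry from lung tissue of wild type animals given IL-33 in vivo, an alarmin that activates them. The 3 libraries, replicates 1 to 3 of their titles, form 1 group with the same genotype, tissue and treatment, and no untreated cells were analysed here, so genes were compared with each other within a library and the IL-33 response itself was out of reach. The labels give neither the ages nor the sort markers, nor how many mice lie behind each library, and an SD given here may therefore hold technical variation alone. Levels are in TPM, transcripts counted per length and scaled to the same total in each library, as mean ± SD over the 3 libraries unless each library is given.

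A receptor that binds its ligand loads GTP onto a G protein alpha subunit, which then separates from the beta-gamma pair. Alpha subunits of the Gs type activate adenylyl cyclase and those of the Gi type inhibit it, RGS proteins speed the hydrolysis of GTP by Gi and Gq subunits, and receptor kinases with arrestins silence the receptor itself. Cyclic AMP releases the catalytic subunits of protein kinase A from their regulatory subunits, phosphodiesterases degrade it, and the kinase phosphorylates CREB at promoters that carry the cyclic AMP response element (CRE). In ILC2s, Gs-coupled receptors for prostaglandins and neuropeptides are known to adjust proliferation and cytokine output through this route.

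The libraries held 19883728 to 19976129 expected reads each, of which 1.27% to 1.28% fell on the 113 genes. The ILC2 marker list was present in full, with 14 of 14 genes at a mean of at least 100 TPM, among them Arg1 (2460 ± 88.4), Id2 (1526 ± 41.1) and Il1rl1 (1064 ± 33.2). Of the lists for other cells, macrophage markers had 9 of 13 listed genes detected and summed to 403, 395 and 552 TPM in replicates 1 to 3, most of it from Chil3 (375 ± 74.7), while Adgre1, Siglecf and Fcgr1 were each below 1 TPM in all libraries. T cell markers had 2 of 6 detected, Cd3e (7.19 ± 1.57) and Cd3d (1.86 ± 0.504), and summed to 8.41, 9.56 and 12.8 TPM. Epithelial markers had 5 of 7 (52.7 to 58.8 TPM). Granulocyte and mast cell markers had 2 of 8 detected, of which Kit (155 ± 2.40) made up most of the sum. B cell, NK cell and fibroblast markers had none detected, and endothelial markers had 1. Macrophage and T cell sums were thus highest in replicate 3, at 1.38 and 1.42 times the mean of the other libraries. Among the detected genes of the relay that ratio had a median of 1.02 and ran from 0.724 (Adcy9) to 1.13 (Pde1b), and the part of other cells in these levels was not tested.

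The CRE is the promoter sequence through which this pathway acts on transcription, and it was looked for in RefSeq promoters of the GRCm38.p6 build, from 250 bases before to 50 bases after each annotated start. Promoters were on hand for 85 of the 113 genes, 145 windows in all. The full 8-base element TGACGTCA, which reads the same on either strand, was in a window of 2 of the 85 genes (2.35%), against 2.03% of all 27025 genes with a promoter and 3.13% of the listed ones. Its 5-base core TGACG, searched on either strand and also counted inside the full element, was in 30 of the 85 genes (35.3%), against 31.5% of the listed genes. The 4 windows printed are the upstream parts that carry the full element, and those with the core in genes known to be induced by cyclic AMP, each 250 bases up to the annotated start, read 5′ to 3′, with the elements and cores in capitals.
Prkar1a, chr11:109650699-109650948, plus strand: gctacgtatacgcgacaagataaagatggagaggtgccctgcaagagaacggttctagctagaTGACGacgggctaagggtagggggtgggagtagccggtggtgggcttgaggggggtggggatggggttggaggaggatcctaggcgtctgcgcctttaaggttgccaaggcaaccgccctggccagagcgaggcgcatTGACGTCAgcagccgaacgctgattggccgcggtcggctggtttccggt
Creb5, chr6:53287053-53287302, plus strand: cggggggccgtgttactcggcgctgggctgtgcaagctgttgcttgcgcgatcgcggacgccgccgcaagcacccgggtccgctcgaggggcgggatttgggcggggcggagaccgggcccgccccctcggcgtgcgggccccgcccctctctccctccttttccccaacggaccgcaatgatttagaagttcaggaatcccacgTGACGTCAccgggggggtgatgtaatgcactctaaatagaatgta
Rgs2, chr1:144004150-144004399, minus strand: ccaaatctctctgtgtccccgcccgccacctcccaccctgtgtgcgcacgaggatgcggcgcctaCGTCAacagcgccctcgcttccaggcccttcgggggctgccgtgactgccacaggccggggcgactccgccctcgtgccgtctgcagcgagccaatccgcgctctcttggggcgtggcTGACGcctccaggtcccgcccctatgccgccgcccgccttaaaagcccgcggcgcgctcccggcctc
Pde4b, chr4:102421305-102421554, plus strand: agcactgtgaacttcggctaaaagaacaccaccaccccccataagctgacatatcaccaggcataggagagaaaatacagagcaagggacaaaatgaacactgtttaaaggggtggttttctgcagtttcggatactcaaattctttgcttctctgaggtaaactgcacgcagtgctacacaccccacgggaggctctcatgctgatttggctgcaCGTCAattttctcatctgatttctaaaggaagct
In the printed windows the full element began 49 bases before the start in Prkar1a, which also holds a separate core. In Creb5 it began 45 bases before the start. These 2 genes differed widely in level, with Prkar1a at 520 ± 14.8 TPM and Creb5 at 0.0633 ± 0.0115 TPM. Rgs2 (699 ± 17.5) and Pde4b (42.8 ± 0.969) carried the core without the full element. Prkar1a, Creb5 and Pde4b have further annotated starts, and the other Pde4b windows held no core. A match is a string of letters in a window and was not tested as a site.

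Detection was set at 1 TPM or more in each library. By that rule 78 of the 113 genes (69.0%) were detected, against 67.3% of all listed genes. Of the rest, 34 were below 1 TPM in all 3 libraries and 1, Gng3, was mixed at 1.89, 1.29 and 0.71 TPM. A mean of at least 10 TPM was reached by 59 genes (52.2%, against 51.2%), and a mean of at least 100 TPM by 22 (19.5%, against 10.3%). The median mean level was 10.6 TPM for the 113 genes and 11.2 TPM for all listed genes. Most classes held a few abundant paralogs beside several at or near 0. Another 10 genes of these classes, such as Rgs4 and Adcy2, are not analysed here.

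The stimulatory subunit gene Gnas was the highest alpha subunit, at 856, 873 and 894 TPM in replicates 1, 2 and 3. It lies on chromosome 2 from 174284320 to 174346744 in GRCm38.p6, an imprinted locus with several promoters whose transcripts are summed in 1 row, and 20.4% of the 50-base words of its transcripts recur in the annotated Gm20721. Gnai2, the main inhibitory subunit of leukocytes (chromosome 9, 107614125 to 107635391), stood at 652, 669 and 676 TPM. Gnas was above Gnai2 in each library and their ranges did not overlap, but the gap was small. Gnai2 minus Gnas was -0.39 ± 0.0099 on the log2(TPM + 1) scale. Gnai3, a close paralog of Gnai2, followed at 230 ± 2.55 TPM, lower than Gnai2 by 1.53 ± 0.012 in each library on the same scale. The remaining Gi-type genes were far lower, with Gnaz at 3.10 ± 0.496, Gnai1 at 0.60 ± 0.0964 and Gnao1, the subunit typical of neurons, at 0.103 ± 0.0473 TPM. With Gnai2 carrying 74.0% ± 0.12 of the TPM of the Gi-type genes, their sum (899 ± 15.4) and the level of Gnas (874 ± 19.2) were nearly equal on TPM, at a ratio of 1.03 ± 0.0084, which was 1.44 ± 0.027 on expected counts not divided by length.

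In the Gq class the leader was Gna15, a subunit largely restricted to blood cells that couples to many receptors, and not the widely expressed Gnaq or Gna11. Gna15 read 110.03, 120.79 and 128.27 TPM and made up 79.9% ± 1.03 of the class. Gna11 (12.3 ± 0.835) and Gnaq (11.1 ± 0.563) had overlapping ranges, with Gna11 higher in 2 of 3 libraries, so their order was not resolved. Gna14 was lowest at 6.59 ± 0.349. In the G12/13 class, whose subunits act on the cytoskeleton, Gna13 (143 ± 3.89) exceeded Gna12 (34.5 ± 2.73) by 2.02 ± 0.073 on the log2(TPM + 1) scale. Of the 50-base words in annotated Gna12 transcripts, 10.8% also occur in those of the listed gene Amz1 (11.3 ± 0.988 TPM), so the lower value is less certain.

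Beta and gamma subunits act as a pair that anchors the complex at the membrane and signals in its own right. Gnb2 (395, 393 and 404 TPM) stood above Gnb1 (326, 316 and 317 TPM) in each library, an order that turned on counts not divided by length, and together they gave 96.5% ± 0.066 of all beta subunit TPM. Gnb4 followed at 15.8, 15.4 and 16.8 TPM. Gnb5, the atypical beta subunit that partners RGS proteins of the R7 subfamily, was at 10.2 ± 0.206, and Gnb3 was listed at 0 in 2 libraries and at 0.05 TPM in the other. Gnb1l (4.81 ± 0.319), matched by name, encodes a related repeat protein and no beta subunit. In the gamma class 3 genes were of like level on TPM, with Gng2 at 191, 188 and 186 TPM, Gng5 at 160, 163 and 153 TPM and Gng10 at 133, 131 and 133 TPM. These 3 ranges did not overlap, and Gng2 took 38.4% ± 0.31 of the class on TPM but 72.4% on counts not divided by length. Gng12 (9.58 ± 0.637) was the last gamma gene detected, while Gng4, Gng7, Gng8 and Gng11 were below 1 TPM in all libraries. For Gng10, 78.9% of the 50-base words are shared with an annotated transcript, Gm20503, that is not a row of the table, and for the mixed gene Gng3 21.9% are shared with Bscl2 (201 ± 7.94).

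**Figure D1:**
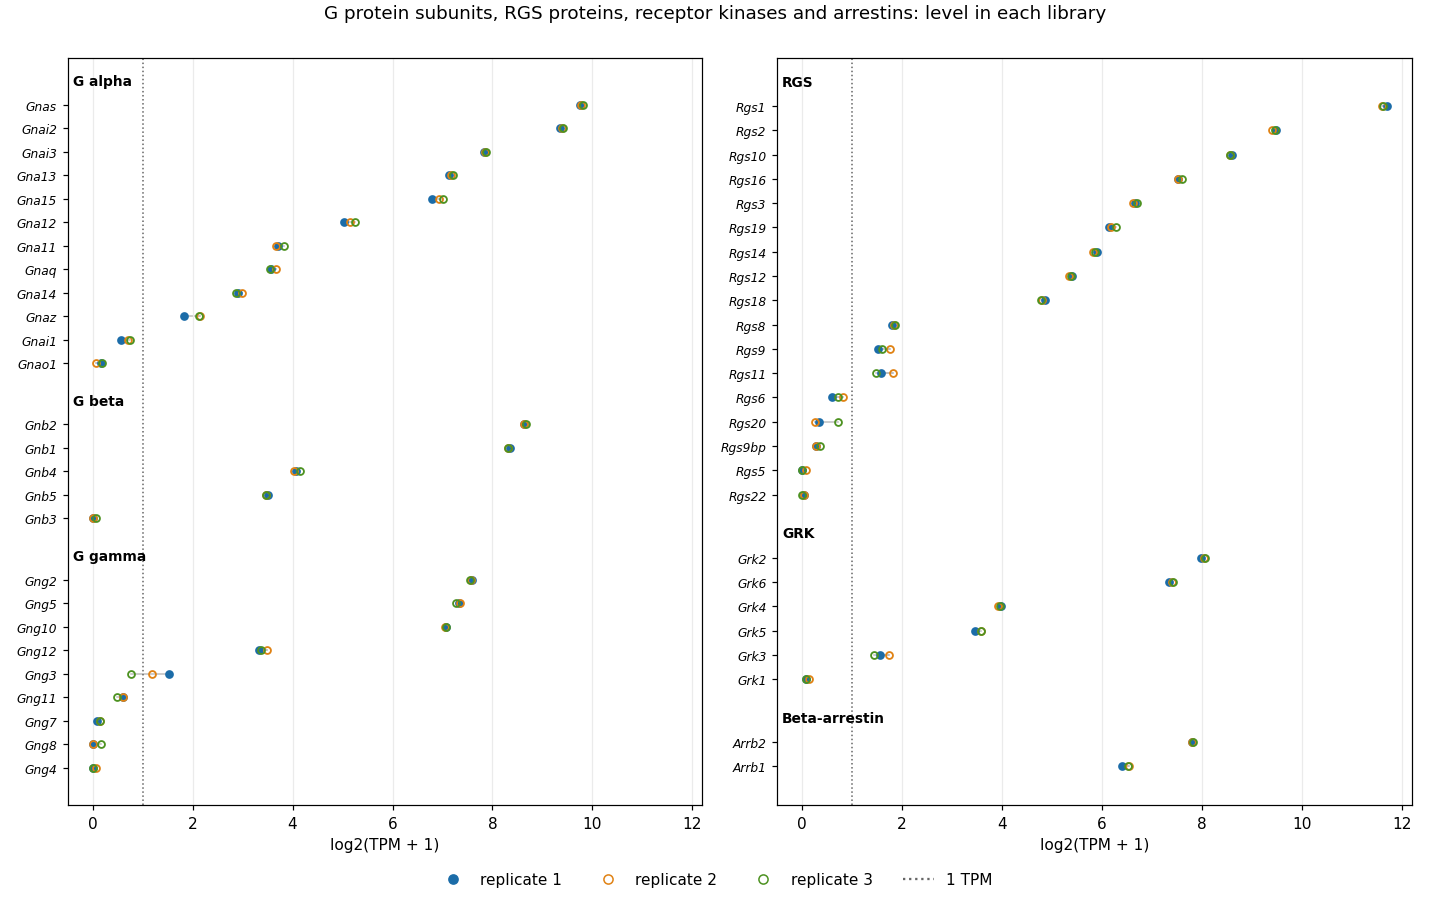
Levels of G protein subunits, RGS proteins, receptor kinases and beta-arrestins as log2(TPM + 1) on the x axis, with 1 point per library (filled blue, replicate 1, open orange, replicate 2, open green, replicate 3) and the dotted line at 1 TPM. Rgs1 lies apart from the others at 3125 to 3333 TPM, and Gng3 is the gene whose points lie on both sides of the line.

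Among RGS proteins 1 gene was highest by a wide margin. Rgs1, a GTPase activator that blunts chemokine receptor signalling in lymphocytes (chromosome 1, 144244669 to 144249104), read 3333, 3125 and 3160 TPM and ranked 41 of all listed genes by mean TPM. Rgs2, which prefers Gq subunits and also lies on chromosome 1, read 714, 680 and 704 TPM. Rgs1 was the higher gene in each library, by 2.19 ± 0.028 on the log2(TPM + 1) scale. Rgs1 alone held 67.1% ± 0.57 of the TPM of the 17 RGS-named genes, or 2.04 ± 0.052 times the sum of the other 16. On expected counts not divided by length, that ratio was 1.13 ± 0.031. That class sum, 4777 ± 132, was 2.28 ± 0.11 times the sum over the 12 alpha subunit genes, and 1.62 ± 0.062 times on those counts.

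The order behind the leading pair is given on TPM and differs on counts not divided by length, where Rgs16 (4066 expected reads per library on average) and Rgs3 (3179) lay above Rgs10 (3017). Rgs10, a small RGS protein of haematopoietic cells and microglia, stood at 379 ± 6.22 TPM. Rgs16 (186 ± 6.20) and Rgs3 (101 ± 2.75), both of the R4 subfamily with Rgs1 and Rgs2, came next. Rgs16 lay 4.10 ± 0.077 below Rgs1 on the log2(TPM + 1) scale. Rgs19 (72.5 ± 3.44), Rgs14 (57.0 ± 1.65), which also binds Ras-type GTPases, Rgs12 (40.6 ± 0.930) and Rgs18 (27.2 ± 0.773) were intermediate. The next tier held Rgs8 (2.57 ± 0.0874) and the R7 genes Rgs9 (2.09 ± 0.254) and Rgs11 (2.09 ± 0.381), whose ranges overlapped each other. Rgs5, Rgs6, Rgs9bp, Rgs20 and Rgs22 were below 1 TPM in all libraries. Of the R7 subfamily, which needs Gnb5, 2 of 3 listed genes were thus detected, at a sum of 4.81 ± 0.717 TPM. Over all listed genes 67.3% were detected.

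Receptor kinases and arrestins were also carried by few genes. Grk2, the kinase recruited to receptors by free beta-gamma pairs, read 252, 262 and 267 TPM, and Grk6, a kinase of leukocyte chemokine receptors, read 162, 168 and 171 TPM. Their difference was the steadiest of all pairs, with Grk6 minus Grk2 at -0.64 ± 0.0021 on the log2(TPM + 1) scale. Together they gave 94.0% ± 0.11 of the kinase TPM, before Grk4 (14.5 ± 0.339), Grk5 (10.6 ± 0.580) and Grk3 (2.00 ± 0.327), while the retinal kinase gene Grk1 was at 0.07 ± 0.0265. Arrb2 (224, 221 and 227 TPM) exceeded Arrb1 (83.2, 92.4 and 91.5 TPM), the other beta-arrestin, by 1.32 ± 0.085 on that scale, but was below it on counts not divided by length.

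The highest adenylyl cyclase transcript was Adcy7, the cyclase of blood cells whose activity is raised by beta-gamma subunits. It read 140, 141 and 142 TPM and held 71.0% ± 0.18 of the cyclase TPM. Adcy3 (34.8 ± 0.676) and the Gi-inhibited Adcy5 (18.6 ± 1.51) followed at some distance. Adcy9 (1.97 ± 0.347) and Adcy4 (1.77 ± 0.300) were just above the detection level and had overlapping ranges, and Adcy7 exceeded Adcy9 by 5.59 ± 0.183 on the log2(TPM + 1) scale. Adcy1, Adcy6, Adcy8 and Adcy10, the last a soluble cyclase that senses bicarbonate, were below 1 TPM in all libraries. Of the 50-base words of Adcy3, 23.3% recur in Cenpo (18.6 ± 1.80 TPM), which makes its value less certain.

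Phosphodiesterase TPM was less concentrated in 1 gene, with a leading share of 26.1% over the Pde-named genes against 71.0% over the cyclases. Detected were 14 of 24 Pde-named genes and 5 of 9 cyclase genes. Both shares were alike and below the 67.3% detected over all listed genes, beside which the counts given next also stand. Pde7a, a cyclic AMP-specific enzyme of T cells and other lymphocytes, led at 85.5, 84.9 and 84.5 TPM, and no other gene of the class reached 50 TPM. Pde3b, which cleaves both cyclic nucleotides and is inhibited by cyclic GMP, read 43.2, 48.8 and 47.2 TPM. It lay 0.86 ± 0.096 below Pde7a on the log2(TPM + 1) scale. Among the PDE4 genes, the targets of rolipram-type drugs, Pde4b (43.5, 41.7 and 43.1 TPM) and Pde4a (36.1 ± 1.76) were the higher ones. Pde4b exceeded Pde4d (8.06 ± 0.654) by 2.27 ± 0.133 on that scale, and Pde4c was at 3.02 ± 0.622. Pde7b (20.4 ± 1.80) and Pde8a (9.51 ± 0.709) completed the detected cyclic AMP-specific enzymes, 7 of 8 in all. Of the enzymes that cleave both nucleotides 4 of 8 were detected, with Pde3b followed by the calcium-stimulated Pde1b (4.45 ± 0.467), Pde11a (2.37 ± 0.258) and Pde1c (1.27 ± 0.159). The other 4, Pde10a, Pde1a, Pde2a and Pde3a, were below 1 TPM in all libraries. The cyclic AMP-specific genes summed to 3.75 ± 0.18 times the TPM of the enzymes that cleave both. This ratio also depends on the lengths by which reads were divided. For Pde3b, the main part of the second sum, the implied length (5231 bases) was below its only annotated coding transcript (6573 bases).

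Of the cyclic GMP-specific list only Pde6d was detected (23.6 ± 1.48), which encodes a chaperone of prenylated proteins and no catalytic chain. The other 5 genes of that list, among them Pde5a (0.64 ± 0.0872), the target of sildenafil, and the retinal Pde6a, were below 1 TPM in all libraries. Pde4dip (21.2 ± 0.165), a scaffold of the Golgi and centrosome, and Pde12 (19.6 ± 0.738), a mitochondrial RNA-degrading enzyme, were matched by name but belong to neither group. Without these, the other 22 Pde-named genes summed to 284 ± 5.17 TPM, or 1.43 ± 0.012 times the 199 ± 1.95 TPM of the cyclases. The ratio was 1.31 ± 0.019 when Pde6d was left out as well, and 1.07 ± 0.023 for the 22 genes on counts not divided by length.

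**Figure D2:**
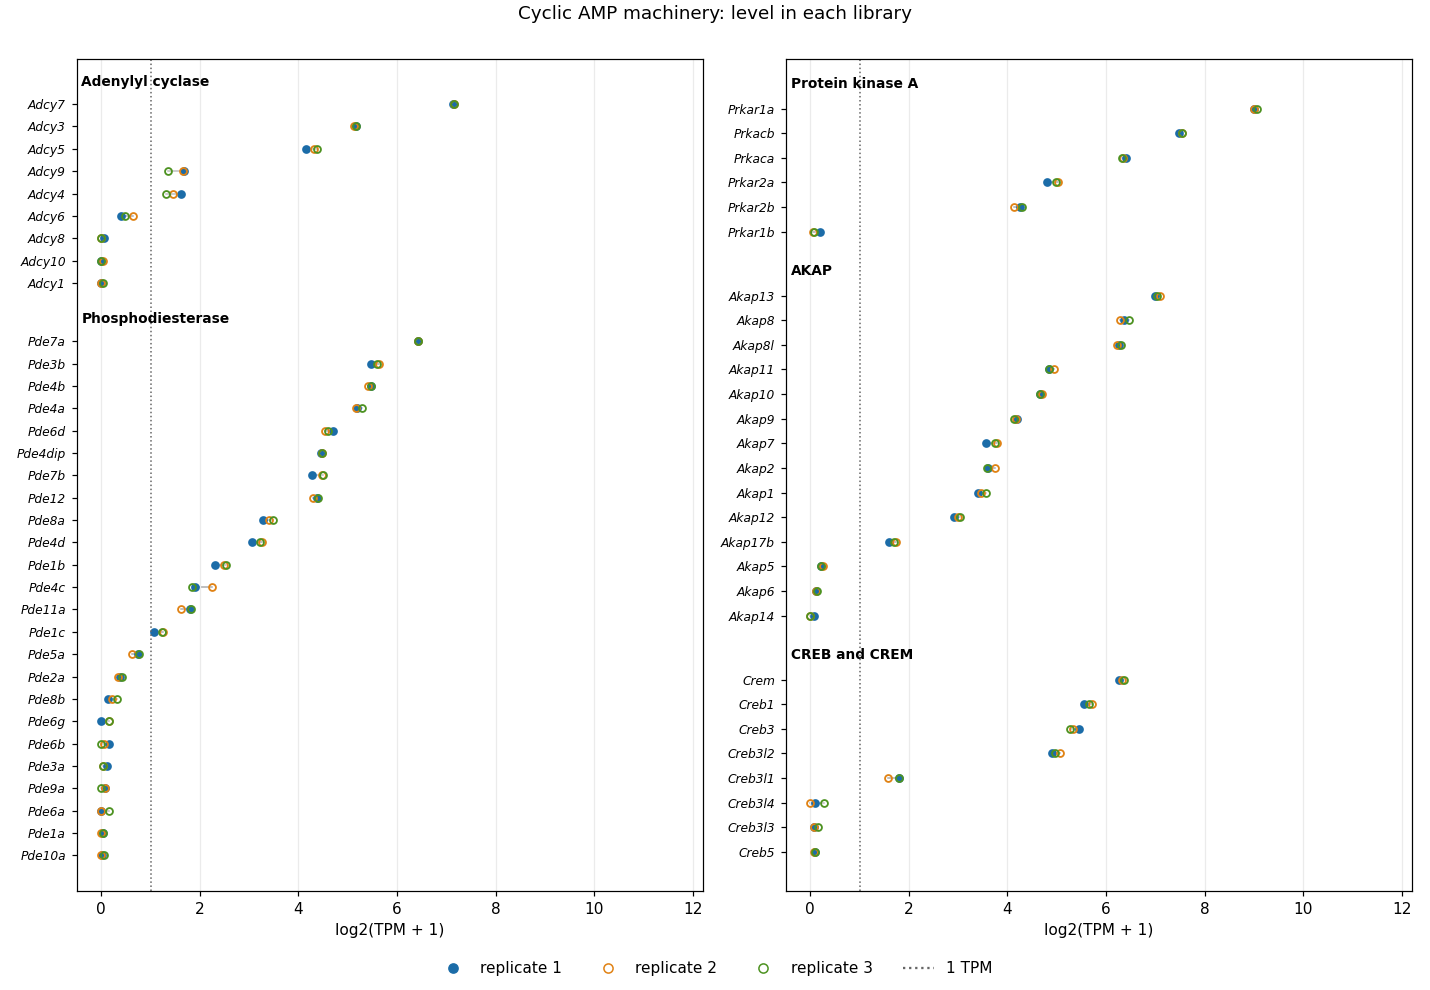
Levels of adenylyl cyclases, phosphodiesterases, protein kinase A subunits, anchoring proteins and CREB-named factors as log2(TPM + 1) on the x axis, 1 point per library, with the dotted line at 1 TPM. Prkar1a is the highest gene shown at 511 to 537 TPM, and Adcy7 and Pde7a lead their classes.

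Protein kinase A transcripts were dominated by the type I regulatory subunit gene Prkar1a, at 512, 511 and 537 TPM. It held 91.7% ± 0.25 of the TPM of regulatory subunits and exceeded the type II gene Prkar2a (29.6 ± 2.38) by 4.09 ± 0.108 on the log2(TPM + 1) scale. Prkar2b stood at 17.7 ± 1.07 and Prkar1b, a form of the nervous system, at 0.0767 ± 0.0551. Of the catalytic subunits, Prkacb (177, 184 and 185 TPM) was above Prkaca (84.1, 80.3 and 79.2 TPM) in each library, by 1.16 ± 0.083 on that scale. Regulatory transcripts summed to 567 ± 16.4 TPM and catalytic ones to 263 ± 2.30, a ratio of 2.15 ± 0.054.

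Anchoring proteins place the kinase at particular membranes and organelles. Of 14 listed genes 11 were detected, beside 67.3% over all listed genes. They were led by Akap13 (126, 136 and 129 TPM), which is also a guanine nucleotide exchange factor. The nuclear proteins Akap8 (81.6 ± 5.31) and Akap8l (75.8 ± 2.34) came next with overlapping ranges. Akap11 (28.5 ± 1.25), Akap10 (24.5 ± 0.491) and the centrosomal Akap9 (16.9 ± 0.388) followed, and Akap13 exceeded Akap9 by 2.87 ± 0.062 on the log2(TPM + 1) scale. Akap7 (10.8, 12.7 and 12.5 TPM) and Akap2 (11.12, 12.47 and 11.03 TPM) could not be ordered. Of the words of Akap2 transcripts 84.7% are shared with the annotated gene Pakap, which is not a row of the table, and no coordinates are given for it. The mitochondrial Akap1 (10.2 ± 0.691), the gravin gene Akap12 (6.89 ± 0.343) and Akap17b (2.20 ± 0.143) were the lowest detected, while Akap5, Akap6 and Akap14 were below 1 TPM in all libraries. Akap13 held 32.5% ± 1.07 of the TPM of this class, and 54.7% of its counts not divided by length. Pde7a held 26.1% ± 0.61 of the TPM of all 24 Pde-named genes.

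At the transcriptional end Crem, which encodes activators and the inducible repressor ICER, stood at 75.7, 79.5 and 81.2 TPM. Creb1, the constitutive factor, read 45.9, 51.9 and 49.6 TPM. Crem was above Creb1 in each library, by 0.67 ± 0.056 on the log2(TPM + 1) scale, but below it on counts not divided by length. The gene-level row does not separate its activator and repressor forms. Of the membrane-bound relatives, Creb3 (40.0 ± 2.47) and Creb3l2 (30.7 ± 1.68) were detected with ranges on TPM that did not overlap, while on expected reads Creb3 (577 per library on average) lay below Creb3l2 (1731). Creb3l1 was at 2.31 ± 0.277, and Creb3l3, Creb3l4 and Creb5 were below 1 TPM in all libraries. Of the words of Creb3, 19.2% recur in Tln1, a gene at 272 ± 9.67 TPM, so reads may be divided between them with error.

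**Figure D3:**
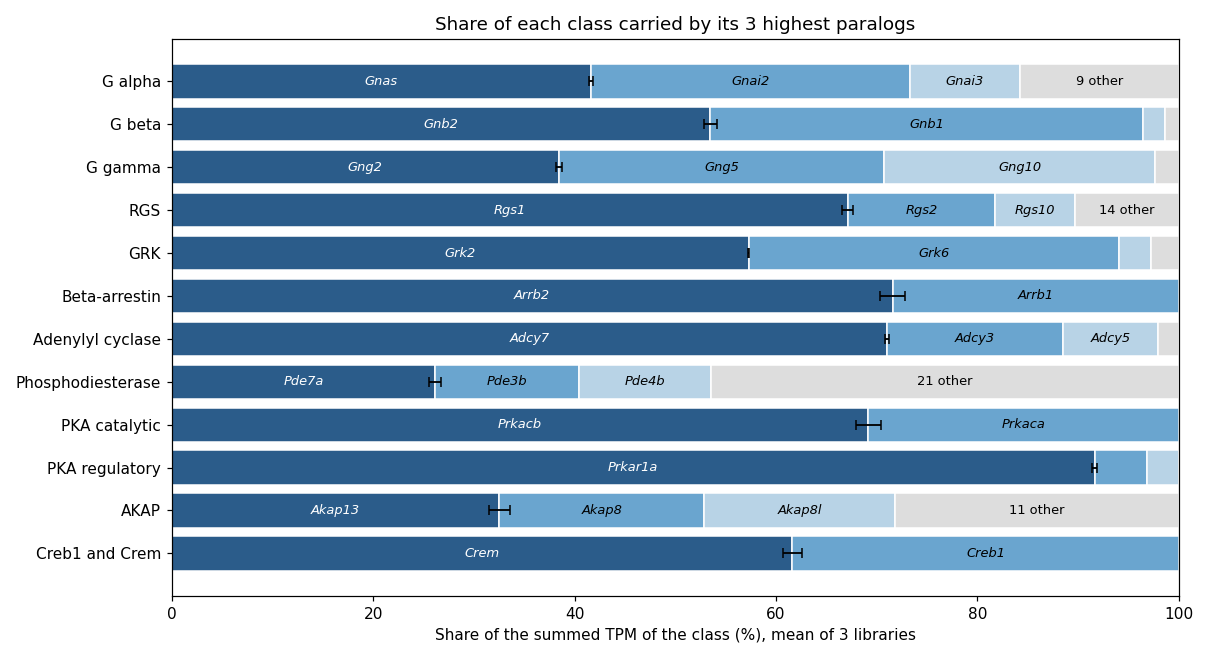
Share of the summed TPM of each class (for phosphodiesterases, all 24 Pde-named genes) held by its 3 highest genes (dark, middle and light blue) and by the remaining members (grey), as the mean over 3 libraries, with the SD of the leading gene's share as the bar. The leading share runs from 26.1% for Pde7a to 91.7% for Prkar1a.

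The 18 pairs compared were chosen with earlier results of these data known. For each, the signs of the 3 library differences were flipped in an exact permutation test (two-sided), which cannot give a p below 0.25. That value was reached by 17 pairs, which kept 1 direction in 3 of 3 libraries (0.265 after Benjamini-Hochberg adjustment over the 18). The exception was Gnaq minus Gna11, at -0.14 ± 0.149 on the log2(TPM + 1) scale with an exact p of 0.50. For the other 17 the mean difference was larger than its SD between libraries, yet this test cannot pass a threshold of 0.05 with 3 libraries. Over neighbours in the order of TPM within a class, or within a subfamily where a class was divided into them, 50 of 55 detected pairs had ranges that did not overlap. The 5 that overlapped were Gna11 with Gnaq, Akap8 with Akap8l, Akap7 with Akap2, Adcy9 with Adcy4 and Rgs9 with Rgs11. Across all Pde-named genes, not divided by substrate, 3 more neighbouring pairs overlapped, which were Pde3b with Pde4b, Pde4dip with Pde7b and Pde7b with Pde12. All neighbours were put in order by the same levels whose ranges were compared, and no share was taken over other genes.

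**Figure D4:**
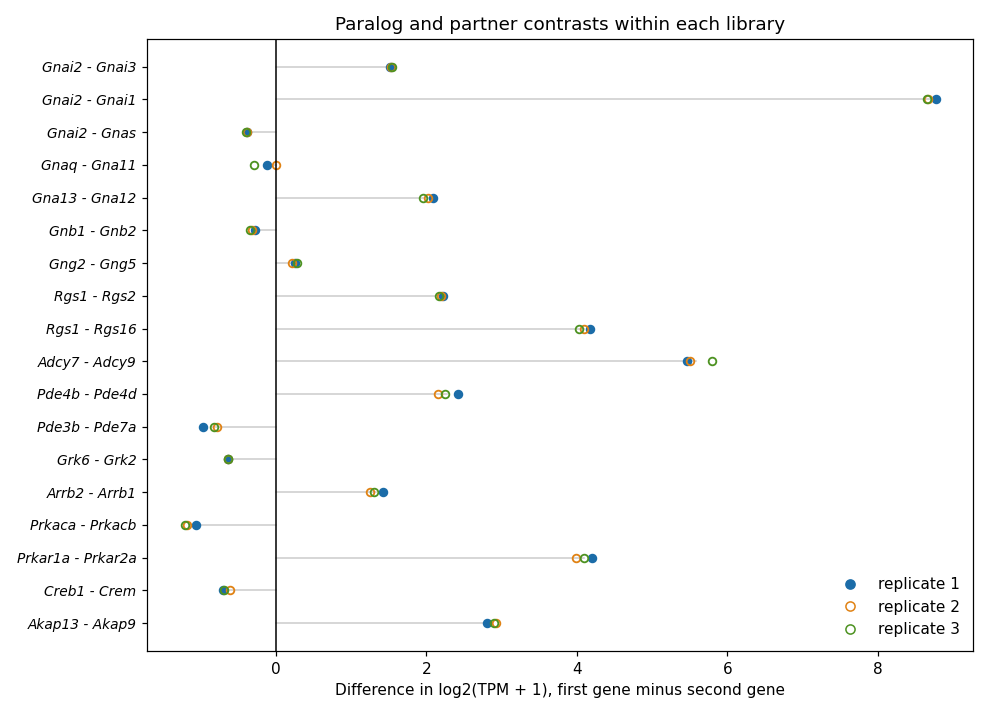
Difference in log2(TPM + 1) between the first and the second gene of each of 18 pairs, 1 point per library (filled blue, replicate 1, open orange, replicate 2, open green, replicate 3), with the vertical line at 0. Points of Gnaq - Gna11 lie on both sides of 0, while those of the other 17 pairs lie on a single side.

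Comparisons between genes depend on the length by which reads were divided. The deposited counts and FPKM together imply an effective length per gene, which was 1281 bases for Rgs1, 2960 for Rgs2, 486 for Gng5 and 3643 ± 6.98 for Gng2. Annotated GENCODE M21 coding transcripts run from 409 to 3841 bases for Rgs1 and from 593 to 2419 for Gng5. Of 78 implied lengths 57 lay within the annotated range once it was extended downward by 300 bases, an allowance for fragment length. Some of the 57, such as Gng5, lay below their shortest annotated coding transcript. Another 16 lay above the longest, where no allowance was made, and 5 below the shortest by more than 300 bases. Pde4d (8319 against a longest of 4207), Adcy9 (7496 against 4974) and Gnaq (6798 against 5644), all genes of tested pairs, were among the 16. Pde3b, also of a tested pair, was among the 5, at 5231 against its only annotated coding transcript of 6573. On expected counts scaled only to the library total, and not to length, Rgs1 exceeded Rgs2 by 0.99 and not 2.19 on the log2 scale, with 39227 and 19771 expected reads per library on average. The direction of 4 pairs turned on that scale. Arrb1 (implied length 7042 bases) then passed Arrb2 (1629 ± 18.2 bases) by 0.78, Gnb1 passed Gnb2 by 0.59, Creb1 passed Crem by 0.93 and Gnaq passed Gna11 by 0.84. The order of these pairs therefore rests on the transcript lengths assigned by the authors' quantification. The difference also moved by over 1.5 times for Gng2 minus Gng5 (0.25 to 3.12), Gna13 minus Gna12 (2.02 to 3.42), Prkaca minus Prkacb (-1.16 to -2.07), Pde4b minus Pde4d (2.27 to 1.22), Gnai2 minus Gnai3 (1.53 to 0.91), Pde3b minus Pde7a (-0.86 to -0.53) and Gnai2 minus Gnas (-0.39 to -0.09).

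Between libraries the spread of most genes was small. Over the 78 detected genes the median coefficient of variation of TPM was 4.67%, against 4.49% over all detected genes. The median expected from counting alone was 2.84%, against 3.66%. The median ratio of spread to counting error was 1.35, against 1.21. For 57 of the 78 the spread exceeded counting error and for 22 it exceeded it by more than 2 times. These numbers were not taken over all detected genes, so they set the 78 apart from no other gene. Pde7a varied least (0.629%) and the lowly expressed Pde4c most (20.6%). The widest range on the log2(TPM + 1) scale was 0.23 among genes averaging 10 TPM or more, in Pde7b (18.4, 21.2 and 21.7 TPM), followed by Gna12 (31.8, 34.6 and 37.2 TPM), Akap7 and Gna15. Replicate 1 was lowest for Pde7b, Gna12, Akap7, Gna15, Adcy5, Prkar2a and Akap1, and replicate 2 for Akap8, which completes the 8 genes with the widest ranges. Of the 78 genes 19, 22 and 37 were highest in replicates 1, 2 and 3, beside 2939, 3572 and 4341 of all detected genes.

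**Figure D5:**
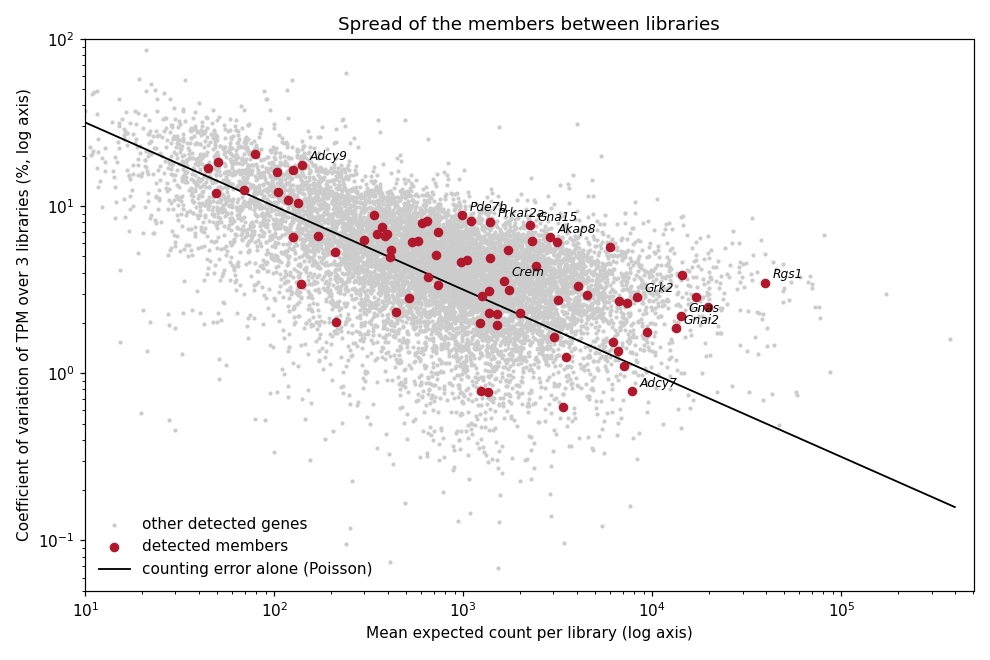
Coefficient of variation of TPM over 3 libraries (y, log axis) against the mean expected count per library (x, log axis) for the detected members (red) and all other detected genes (grey), with the line that Poisson counting error alone would give. The members lie among the other genes, and abundant ones such as Rgs1 lie above the line.

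Partners of the relay were taken from hand-made lists, and their counts of detected genes stand beside the 67.3% detected over all listed genes. Of 12 listed Gs-coupled receptor genes 9 were detected, headed by the neuropeptide receptor gene Vipr2 (152 ± 3.55), the proton sensor gene Gpr65 (139 ± 4.26) and the prostaglandin receptor gene Ptger4 (114 ± 2.14), and the list summed to 594 ± 7.14 TPM. The Gi-coupled list had 12 of 16 detected and summed to 3078 ± 37.1 TPM, led by the chemokine receptor genes Cxcr6 (1317 ± 31.7) and Ccr8 (757 ± 19.8). The Gq-coupled list had 8 of 9 detected and summed to 281 ± 6.03 TPM, led by the leukotriene receptor genes Cysltr2 (95.2 ± 5.69) and Cysltr1 (77.1 ± 2.04). These sums depend on which receptors were put on each list.

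Downstream, the guanine nucleotide exchange factor gene Arhgef1, an effector of Gna13, stood at 414.35, 417.6 and 430.42 TPM, above Arhgef11 (10.3 ± 0.467) and Arhgef12 (8.21 ± 0.763). Of 4 phospholipase C beta genes 3 were detected, with Plcb4 (58.7 ± 1.60) above Plcb3 (42.95, 41.29 and 41.69 TPM) and Plcb2 (21.1 ± 1.42). The beta-gamma effectors Prex1 (219.5 ± 8.53) and Pik3cg (88.8 ± 1.54) led their list, 5 of 6 detected. Among cofactors of the G protein cycle 7 of 8 were detected, led by Gpsm3 (248 ± 2.76), a binder of Gi subunits, and Nucb1 (240 ± 10.9), with the alpha subunit chaperone Ric8a at 72.0 ± 0.163.

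Cyclic AMP effectors other than protein kinase A were low. None of 5 listed genes was detected, neither the exchange factors Rapgef3 (0.533 ± 0.0751) and Rapgef4 (0.26 ± 0.110) nor the 3 Popeye-domain genes, such as Popdc3 (0.827 ± 0.270). The kinase inhibitors Pkig (21.2 ± 1.45), Pkib (13.2 ± 2.21) and Pkia (3.26 ± 0.0321) were all detected. So were 6 of 6 CREB coactivators and relatives, led by Atf1 (81.1 ± 3.18), Crtc3 (74.5 ± 3.06) and Crtc2 (50.2 ± 2.87). The list of genes known to be induced by cyclic AMP had 14 of 14 detected, 4 of them counted among the 113 as well, with Rgs2, Nr4a1 (542 ± 22.8) and Fos (410 ± 4.19) highest.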

How the data were processed

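RNA from ILC2s sorted from mouse lung was sequenced as 3 libraries of 1 group. Bowtie2, RSEM 1.3.1 and the GRCm38.p6 build are named, per the submitters' processing notes. Which annotation was used is not given in the sources here. Per the file headers, the authors deposited expected counts (estimated reads, not whole numbers), FPKM and TPM per gene. 3 further columns of depth-scaled counts were not used. Totals were 19883728 to 19976129 expected counts per library.

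Members were matched by symbol and sorted into classes by hand. TPM gave all levels. Pairs were compared as log2(TPM + 1) per library with an exact sign-flip permutation test. Members, lists, pairs and the rule for named genes were chosen with earlier results of these data known. That rule names members at a mean of 1 TPM or more, up to 6 per class below it in alphabetical order, the 8 with the widest ranges and the 3 highest of each list. Genes sharing words with members, macrophage markers and genes not analysed here were named outside it, after values were seen. The class ratios were chosen after the values were seen. Of the class genes, 10 are not analysed here. Coordinates and promoters are from RefSeq GRCm38.p6, which matched 112 of 113 members. 50-base words were compared on either strand over GENCODE M21 transcripts, which may not be the authors' annotation, and 19 members shared over 5% of theirs. Implied lengths take the FPKM total to be the summed expected counts. Scripts ran in Python 3.11.15 with numpy 2.4.6 and pandas 2.3.3 and were tested on simulated data. Alternatives were a pseudocount of 0.1, detection at 0.5 or 5 TPM, FPKM, counts not divided by length and leaving out each library.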

Additional observations from a re-analysis of the deposited data

How the results depend on the processing

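The number of detected genes was 78 and ranged from 64 (at 5 TPM) to 81 (at 0.5 TPM), with 69 at 1 FPKM, and 78 to 79 without 1 library. Of 208 recomputed pair differences and leading shares, 185 kept their direction (pairs) or lay within 1 SD (shares). Every pair did so under FPKM, a pseudocount of 0.1 and the loss of any 1 library. Most of these outcomes were fixed in advance and show no robustness. FPKM is TPM times a constant of the library, and neither it nor the pseudocount can turn a pair within a library. A pair with 1 direction in 3 libraries cannot turn when 1 is left out, and a mean share cannot then move by 1 SD. Expected counts scaled to the library total and not to length could change the results, and the other 23 all came from them. On that scale 4 pairs reversed: Gnaq minus Gna11 became 0.84, Gnb1 minus Gnb2 0.59, Arrb2 minus Arrb1 -0.78 and Creb1 minus Crem 0.93. The leading gene's share of its class or subfamily became 73.4% for Adcy7, 54.7% for Akap13, 36.8% for Arrb2, 34.3% for Crem (of Creb1 and Crem, 61.6% on TPM), 24.5% for Creb3, 91.7% for Gna13, 64.9% for Gnai2, 62.9% for Gna15, 37.0% for Gnb2 and 72.4% for Gng2. It became 60.1% for Grk2, 80.9% for Prkacb, 89.8% for Prkar1a, 40.3% for Pde7a (of the 8 cyclic AMP-specific genes, 41.5% on TPM), 87.1% for Pde6d, 87.2% for Pde3b, 53.4% for Rgs10, 58.6% for Rgs1 (of the R4 subfamily, 75.9% on TPM) and 60.6% for Rgs9. No paired analysis was possible because the libraries form 1 group. With 3 libraries the sign-flip test cannot pass 0.05. The class ratios on counts and the sum without Pde6d were added after seeing the data. Levels near 0 rest on few reads.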
